A study of Mus musculus with 15 samples.

Results

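The genes described here are 5 keratins of the simple intestinal epithelium (Krt7, Krt8, Krt18, Krt19 and Krt20), the hair-type keratin Krt84, the caspase Casp14 and the transglutaminases Tgm3 and Tgm2, read in bulk RNA of mouse colonic crypts. They are 9 of the 32939 genes in the deposited table, matched by symbol. The set was chosen by family and role together with measured values, since Casp14 and Tgm3 were among the large rises with fatty liver in an earlier look at these data. The comparison of FL-shGFP with NL-shGFP is therefore given for the members as a description, with no test. The FL-shAlpl comparisons use the same FL-shGFP or NL-shGFP values, so Casp14 and Tgm3 are described there too, with no test. The other 7 members were also chosen with earlier results of these data known, so their adjusted p-values may be too small.

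The study sequenced 15 samples in 3 groups of 5, and its stated design asks how crypts differ between liver conditions and when alkaline phosphatase is lowered in fatty liver. NL-shGFP mice were wild type, received an adeno-associated virus with an shRNA to GFP (AAV-shGFP) and had a normal diet and normal liver. FL-shGFP mice were wild type, received AAV-shGFP and had a fatty liver on CDAA diet, an abbreviation in use for feed that lacks choline and supplies defined L-amino acids. FL-shAlpl mice were wild type, had the same diet and a fatty liver, and received AAV-shAlpl, an shRNA to Alpl, which encodes tissue-nonspecific alkaline phosphatase. All 3 groups thus carried a vector, diet and liver condition changed together, and no group with normal liver received AAV-shAlpl. The labels do not give the animals, sex, age, the tissue the vector reached or a batch, nor that replicates are separate animals, so p-values may measure only the spread between these samples.

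Keratins form the intermediate filaments of epithelial cells as pairs of a type I and a type II protein. In the gut, KRT8 is the main type II partner of the type I keratins KRT18, KRT19 and KRT20, and KRT20 is known as a keratin of the mature cells near the crypt mouth. Casp14 and Tgm3 are best known from the terminal differentiation of epidermis and hair, where caspase-14 cleaves filaggrin and transglutaminase 3 cross-links keratins and cornified envelope proteins.

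Alpl, the target, had 14 to 25 counts per library in FL-shGFP, 0 to 6 in FL-shAlpl and 0 to 2 in NL-shGFP. Library totals were 33.3 to 41.4 M counts in NL-shGFP, 37.5 to 51.7 M across FL-shGFP and 42.1 to 58.6 M in FL-shAlpl. Mitochondrially encoded genes took 33.2% ± 3.98 (SD, n = 5) of counts in NL-shGFP, 16.7% ± 3.32 across FL-shGFP and 19.9% ± 4.03 in FL-shAlpl. All 8 colonic epithelium markers were present in every group. The goblet cell mucin Muc2 alone was 18190 to 21326 CPM in NL-shGFP, 14397 to 17119 across FL-shGFP and 6495 to 12909 in FL-shAlpl. The other 7 markers summed to 6252 to 7010.5 CPM, 7501 to 11096 and 6267 to 9923, in the same order of groups.

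Krt8 and Krt18 lie next to each other on mouse chromosome 15, which also carries Krt7 and Krt84, while Krt19 and Krt20 lie in the type I cluster on chromosome 11, Krt20 between Krt12 and Krt23. Casp14 is on chromosome 10, and Tgm3, beside Tgm6, and Tgm2 are on chromosome 2. The gene lengths implied by the deposited FPKM equalled the summed exon length of GENCODE M21 (mouse build GRCm38) in 98.2% of 31233 genes and in all 9 members. RefSeq's promoter table (GRCm38.p6) held a window for 7 of the 9 members, Krt19 and Tgm2 being without one. The 250 bases before the start are printed for Krt20, Tgm3, Casp14 and Krt84, the 4 members whose levels moved most between groups. Each runs 5′ to 3′ along the gene, and capitals mark matches to any searched motif, on either strand.
Krt20: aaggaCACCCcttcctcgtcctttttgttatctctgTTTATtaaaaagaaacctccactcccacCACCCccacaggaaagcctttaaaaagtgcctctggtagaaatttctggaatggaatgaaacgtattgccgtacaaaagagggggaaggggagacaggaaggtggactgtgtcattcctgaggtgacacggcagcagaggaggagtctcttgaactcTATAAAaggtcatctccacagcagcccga
Tgm3: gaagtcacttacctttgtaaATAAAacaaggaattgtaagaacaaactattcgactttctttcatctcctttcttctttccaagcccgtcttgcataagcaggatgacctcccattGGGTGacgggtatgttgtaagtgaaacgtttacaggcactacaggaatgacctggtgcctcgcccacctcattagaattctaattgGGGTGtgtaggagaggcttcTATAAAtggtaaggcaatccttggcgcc
Casp14: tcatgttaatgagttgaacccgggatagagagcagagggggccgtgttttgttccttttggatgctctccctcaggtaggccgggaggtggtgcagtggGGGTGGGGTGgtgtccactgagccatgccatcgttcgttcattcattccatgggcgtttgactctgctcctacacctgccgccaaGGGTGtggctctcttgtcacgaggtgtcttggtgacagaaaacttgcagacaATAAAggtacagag
Krt84: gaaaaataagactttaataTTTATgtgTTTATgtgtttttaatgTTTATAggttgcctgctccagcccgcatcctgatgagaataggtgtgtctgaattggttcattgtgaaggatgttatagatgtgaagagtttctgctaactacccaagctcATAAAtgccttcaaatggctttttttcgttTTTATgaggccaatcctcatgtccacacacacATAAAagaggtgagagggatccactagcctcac
These windows are chr11:99438154-99438403 for Krt20 on the minus strand, chr2:130012090-130012339 for Tgm3 on the plus strand, chr10:78718294-78718543 for Casp14 on the minus strand and chr15:101532821-101533070 for Krt84 on the minus strand. The motifs searched on both strands were TATAAA for the TATA box, GGGCGG for the GC box, CACCC for the CACCC box, TGANTCA for an AP-1 site, TTTAT as a plain run, and the inverted repeat of AGAACA with 3 bases between its arms for the glucocorticoid response element. A TATA box holds the reverse complement of TTTAT within it, so the 2 can overlap. The TATA box stood 29 bases before the start in Krt20 and 28 in Tgm3 on the gene's strand, and 206 bases before it on the other strand in Krt84. Casp14 had no TATAAA in its window. Of all 32851 windows, 12.4% held TATAAA, 32.7% GGGCGG, 52.0% CACCC, 6.75% TGANTCA and 37.3% TTTAT, and 3 windows held the glucocorticoid element. CACCC or its reverse complement occurred 2 times in Krt20, 2 times in Tgm3, 3 times in Casp14 and 0 times in Krt84. GC content was 48% in Krt20, 44% in Tgm3, 54.4% in Casp14 and 38.8% in Krt84, against a median of 52.4% over all windows. Krt7, not printed, had 66% GC and 4 GC boxes, and no member's window matched the AP-1 or the glucocorticoid motif.

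Krt8, Krt19, Krt18 and Krt20 had the highest levels per length in each group, and the lowest of the 4 was apart from the next member each time. In NL-shGFP, Krt8 had the highest level at 1057 ± 192 FPKM, with Krt19 next at 786 ± 61.6 FPKM. Krt18 at 271 ± 17.8 FPKM and Krt20 at 248 ± 115 FPKM overlapped, and Krt18 was the higher in 3 of 5 samples. Krt7 at 28.5 ± 2.05 FPKM and Tgm2 at 21.3 ± 5.88 FPKM followed, and their ranges overlapped. Tgm3 stood at 2.39 ± 1.82 FPKM, Krt84 at 0.237 ± 0.0768 and Casp14 at 0.129 ± 0.0623, the last pair overlapping. Krt7's level per length rests on an exon length of 7049 bases summed over 5 annotated transcripts, the longest of which has 4094 bases, so its FPKM depends on that model.

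In FL-shGFP, 6 of 9 members had another rank than in NL-shGFP. Krt20 moved above Krt18 in 4 of 5 samples, at 528 ± 153 against 338 ± 29.4 FPKM. Tgm3 came directly after Krt18 at 126 ± 92.4 FPKM, above both Tgm2 and Krt7 on average, and its range overlapped those of both. In FL-shGFP replicate 5, Tgm3 at 22.6 FPKM was below Krt7 at 25.2 FPKM. Tgm2 at 23.1 ± 7.94 FPKM and Krt7 at 20.2 ± 3.37 FPKM overlapped, Tgm2 being the higher in 3 of 5 samples. Casp14 at 12.1 ± 11.3 FPKM was above Krt84 at 0.800 ± 0.271 FPKM in all 5 samples, with no overlap. In FL-shAlpl, 3 members (Krt7, Tgm2 and Tgm3) had another rank than in NL-shGFP. Krt20 stood below Krt18 in all 5 samples, at 256 ± 59.5 against 352 ± 26.6 FPKM, and Tgm3 came next at 101 ± 46.3 FPKM. Krt84 and Casp14 were again the lowest, at 2.65 ± 0.889 and 2.37 ± 1.19 FPKM, and overlapped.

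From here, levels of a gene across samples are CPM on TMM-normalized library sizes, and a difference is edgeR's log2 fold change with its standard error, with n = 5 per group. Adjusted p is over the 17404 genes tested, and a gene is called below 0.05. In bulk RNA, fewer cells of a type and less RNA per cell cannot be told apart.

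Krt84, Casp14 and Tgm3 were higher in both fatty-liver groups than in any NL-shGFP sample, Krt7 was lower in both, and Krt20 was high in FL-shGFP alone among the group means. All 9 members passed the filter on low counts. In FL-shGFP against NL-shGFP, 46.7% of all genes were called, 25.1% higher and 21.6% lower, and the 2 groups did not overlap in 34.2% of all genes (18.1% higher, 16.2% lower). The members are not counted against these shares, since that comparison helped to choose them. Of the 7 members other than Casp14 and Tgm3, 1 was called higher (Krt84) and 2 lower (Krt20 and Tgm2) in FL-shAlpl against FL-shGFP (36% of all genes called, 18% higher and 17.9% lower). In FL-shAlpl against NL-shGFP, 3 of the 7 were called higher (Krt8, Krt19 and Krt84) and 1 lower (Krt7), where 17.4% of all genes were called, 9.31% higher and 8.12% lower. The median difference of the 7 was 0.05 and 0.25 in these comparisons, beside -0.00 and 0.05 over all tested genes. In FL-shAlpl against FL-shGFP, 1 of the 7 was higher and 0 lower without overlap (7.63% and 9.29% of all genes, 16.9% together). Against NL-shGFP, 1 was higher and 1 lower without overlap (7.54% and 7.01%, 14.6% together). These comparisons share samples and are not independent.

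**Figure D1:**
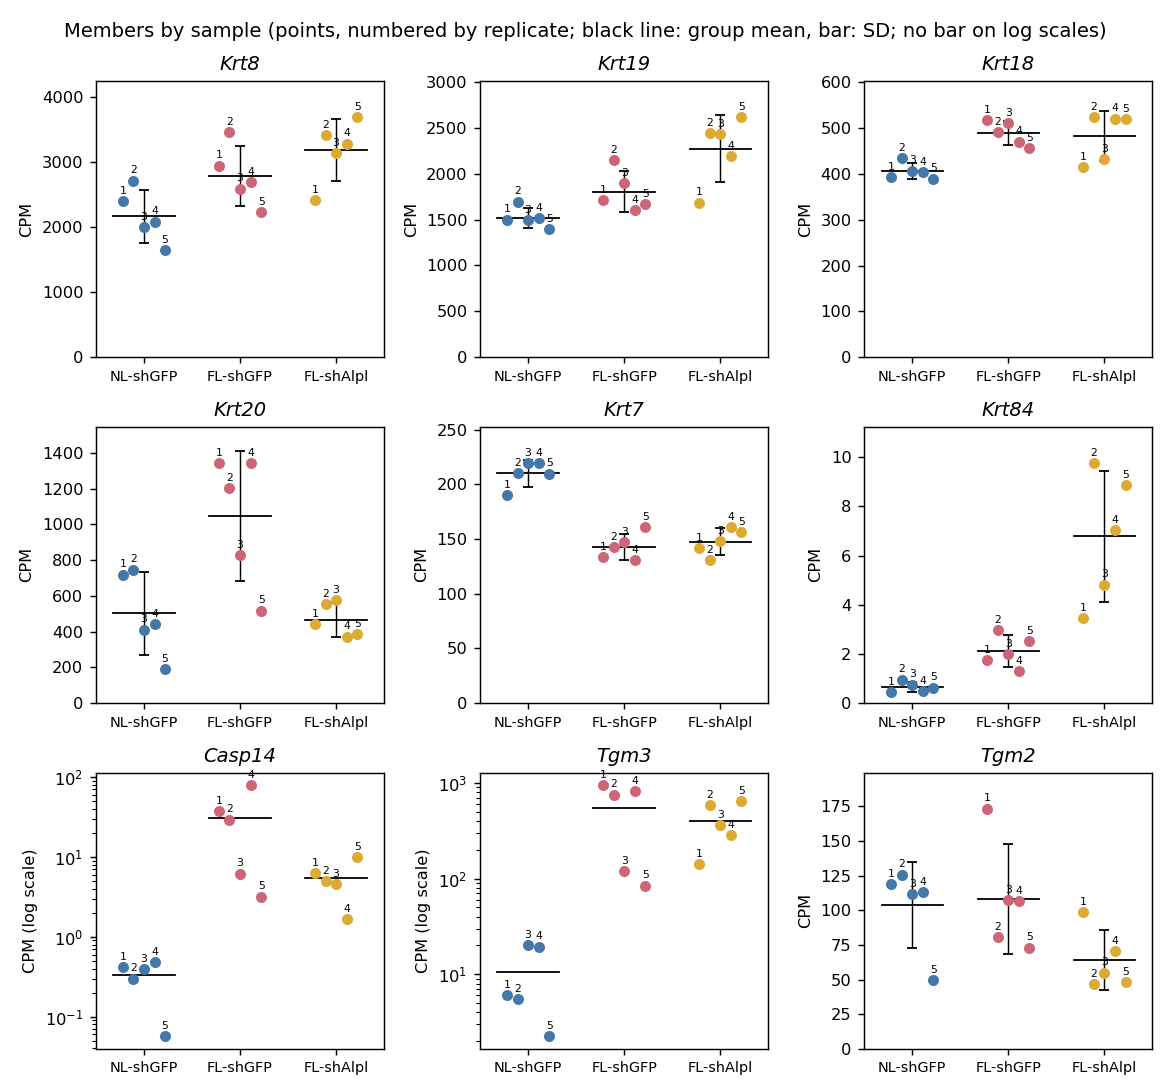
CPM of each of the 9 genes in the 15 samples (points, numbered by replicate; black line, group mean; bar, SD; Casp14 and Tgm3 on log axes without a bar). Krt84, Casp14 and Tgm3 lie above all NL-shGFP samples in both fatty-liver groups, and Krt7 lies below them.

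**Figure D2:**
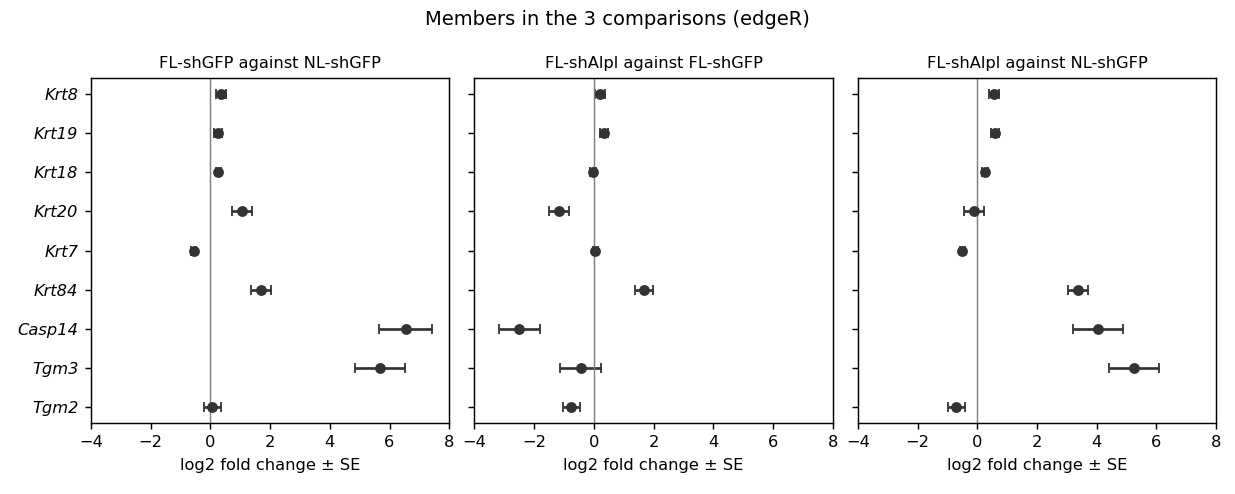
The log2 fold change of each gene (points; bars, standard error) in the 3 comparisons, with 0 marked by a line. Casp14 and Tgm3 have the largest differences from NL-shGFP, and Krt84 is the one gene called higher in FL-shAlpl than in FL-shGFP.

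Krt8, the main type II keratin of the gut epithelium, was 2393, 2709, 1994, 2082 and 1642 CPM in NL-shGFP replicates 1 to 5. In FL-shGFP it was 2940.4, 3458, 2588, 2684 and 2222 CPM, and in FL-shAlpl 2407, 3403, 3134, 3278 and 3685 CPM. Neighbouring groups overlapped, with 4 of 5 FL-shAlpl samples above every NL-shGFP sample and replicate 1 within their range. The difference from NL-shGFP was 0.36 ± 0.17 in FL-shGFP, as a description, and 0.56 ± 0.17 in FL-shAlpl (adjusted p = 0.0320, edgeR). That call held in 8 of 15 fits that each left out 1 sample, with adjusted p up to 0.101. FL-shAlpl and FL-shGFP differed by 0.20 ± 0.17 (adjusted p = 0.380, edgeR), less than the spread between samples.

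Krt19, a type I partner found through much of the crypt, ran in parallel with Krt8. It was 1499.8, 1695, 1496, 1518 and 1396 CPM in NL-shGFP, 1710.1, 2145, 1896, 1602 and 1664 across FL-shGFP, and 1685, 2445, 2430.1, 2193 and 2617 in FL-shAlpl. Replicate 1 was the lowest FL-shAlpl sample for both Krt8 and Krt19, and the other 4 FL-shAlpl samples had more Krt19 than any sample of either other group. FL-shAlpl exceeded NL-shGFP by 0.58 ± 0.14 (adjusted p = 0.00935, edgeR). Against FL-shGFP the difference of 0.33 ± 0.14 was not called (adjusted p = 0.0672, edgeR), and it was called on library totals alone (adjusted p = 0.0304) and by DESeq2 (adjusted p = 0.0290). FL-shGFP lay 0.25 ± 0.14 above NL-shGFP, as a description.

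Krt18, the other classical partner of Krt8, had the narrowest spread of the type I keratins. Its levels were 393, 434, 407, 404 and 389.8 CPM in NL-shGFP, 517, 491, 511, 470.5 and 456 across FL-shGFP, and 415, 524, 432, 521 and 520.2 in FL-shAlpl. Every FL-shGFP sample was above every NL-shGFP sample, by 0.27 ± 0.10 in the fit, while FL-shAlpl replicates 1 and 3 fell among the NL-shGFP values. FL-shAlpl against NL-shGFP gave 0.25 ± 0.10 (adjusted p = 0.0853, edgeR), with a call on library totals alone (0.0140) and by DESeq2 (0.0224). Between the fatty-liver groups the difference was -0.02 ± 0.10 (adjusted p = 0.892, edgeR), and its sign turned under several settings.

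Krt20, the type I keratin of mature surface cells, was the abundant keratin that differed most between the fatty-liver groups. It was 718, 746, 410.3, 442 and 192 CPM in NL-shGFP, 1344, 1203, 828, 1341 and 517 across FL-shGFP, and 443, 552, 577, 372 and 385 in FL-shAlpl. FL-shGFP replicate 5 was the low sample of its group and lay within both other groups, whereas the other 4 exceeded every sample of NL-shGFP and FL-shAlpl. Krt20 was lower in FL-shAlpl than in FL-shGFP by -1.17 ± 0.33 (adjusted p = 0.0133, edgeR), with 3 of 5 samples below all FL-shGFP samples. This call held in all 15 fits without 1 sample and in 11 of 11 other settings. FL-shAlpl and NL-shGFP differed by -0.11 ± 0.32 (adjusted p = 0.863, edgeR), and FL-shGFP stood 1.06 ± 0.33 above NL-shGFP, as a description.

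The share of Krt20 in the summed FPKM of Krt18, Krt19 and Krt20 moved with its level. It was 25.6, 24.1, 16.3, 17.3 and 8.86% in NL-shGFP, 35.2, 29.4, 23.8, 36.9 and 18.1% across FL-shGFP, and 16.1, 14.6, 15.7, 11.1 and 10.1% in FL-shAlpl. All 5 FL-shAlpl samples lay below all 5 FL-shGFP samples, while NL-shGFP overlapped both. Krt19 took the larger part of the complement, 60.6% ± 4.52 in NL-shGFP, 52.8% ± 6.42 across FL-shGFP and 67.7% ± 2.85 in FL-shAlpl. The ratio of these type I keratins to Krt7 and Krt8 was 1.13 to 1.29 in NL-shGFP, 1.19 to 1.36 across FL-shGFP and 1.02 to 1.18 in FL-shAlpl. All 5 FL-shAlpl ratios lay below all 5 FL-shGFP ratios, and NL-shGFP overlapped both.

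**Figure D3:**
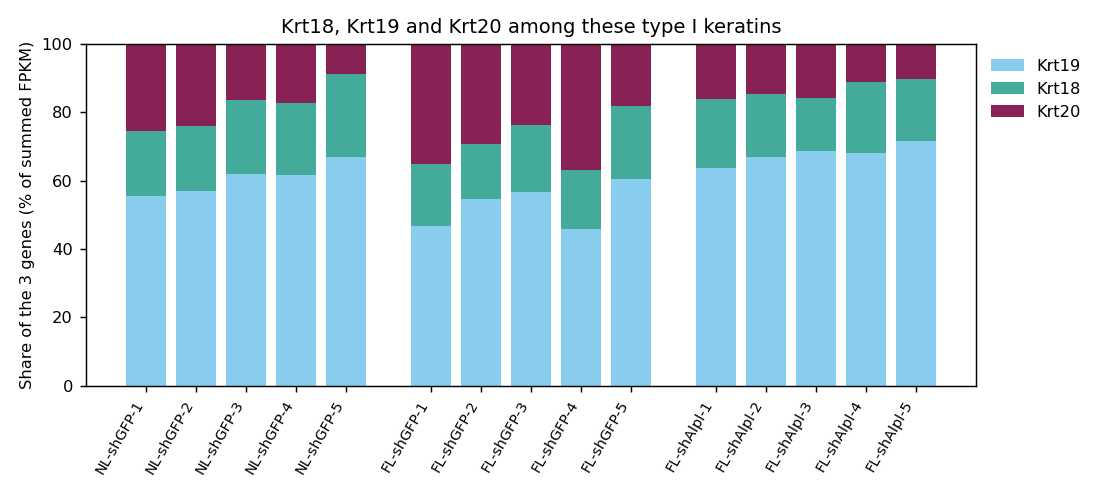
Shares of Krt19, Krt18 and Krt20 in their summed FPKM (stacked bars, percent, 1 bar per sample, 3 groups of 5). The Krt20 share is 18.1 to 36.9% in FL-shGFP and 10.1 to 16.1% in FL-shAlpl.

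Krt7, a type II keratin better known from ductal and transitional epithelia, was the one member lower with fatty liver. It was 190.1, 210.3, 219.5, 219.6 and 209.8 CPM in NL-shGFP, 134, 143, 147, 130.4 and 161 across FL-shGFP, and 142, 131, 148, 161 and 156 in FL-shAlpl. No fatty-liver sample of either group reached the lowest NL-shGFP sample, and the fatty-liver groups covered the same range. The difference from NL-shGFP was -0.55 ± 0.09 in FL-shGFP, as a description, and -0.51 ± 0.09 in FL-shAlpl (adjusted p = 0.00134, edgeR). The call for FL-shAlpl held in all 15 fits without 1 sample and in 11 of 11 other settings. FL-shAlpl and FL-shGFP differed by 0.05 ± 0.09 (adjusted p = 0.700, edgeR). As a share of Krt7 and Krt8 FPKM, Krt7 was 2.70% ± 0.56 in NL-shGFP, 1.45% ± 0.33 across FL-shGFP and 1.30% ± 0.21 in FL-shAlpl.

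Mesothelium and urothelium are lining tissues known for Krt7. Their 7 markers summed to 8.08 to 12.7 CPM in NL-shGFP, 18.4 to 44.7 across FL-shGFP and 6.71 to 15.2 in FL-shAlpl, with 1 of 7 (Upk2) at 0 throughout FL-shAlpl and none at 0 throughout the other groups. Their part in the Krt7 difference was not tested.

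Krt84, a type II keratin known from hair and nail, was scarce but stepped up from group to group. It was 0.45, 0.947, 0.752, 0.477 and 0.626 CPM in NL-shGFP (15 to 38 counts), 1.75, 2.98, 2.0, 1.31 and 2.5 across FL-shGFP (44 to 147 counts), and 3.45, 9.77, 4.82, 7.02 and 8.88 in FL-shAlpl (203 to 564 counts). The 3 groups did not overlap, so that every FL-shAlpl sample exceeded every FL-shGFP sample and each of those exceeded every NL-shGFP sample. The difference between these groups was 1.68 ± 0.31, a 3.21-fold higher level (adjusted p = 0.00114, edgeR), and it was called in all 15 fits without 1 sample and in 11 of 11 other settings. FL-shAlpl exceeded NL-shGFP by 3.38 ± 0.34, or 10.4-fold (adjusted p = 3.61e-05, edgeR), and FL-shGFP exceeded it by 1.69 ± 0.32, as a description. Under the other settings the Krt84 difference from NL-shGFP ran from 1.53 to 3.48 in FL-shAlpl and from 0.53 to 1.75 in FL-shGFP. Between the fatty-liver groups it ran from 0.998 to 1.73. The sizes of the Krt84 differences, and the fold values, thus depend on the setting used for these low counts. Krt84 was chosen with earlier results of these data known, so its adjusted p-values may be too small. Even in FL-shAlpl its level per length was 2.65 FPKM beside 1702 for Krt8.

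Casp14, the caspase of cornifying epithelia, was near the floor with normal liver. It was 0.42, 0.299, 0.392, 0.477 and 0.0569 CPM in NL-shGFP (2 to 18 counts), 37.4, 29.2, 6.19, 78.9 and 3.18 across FL-shGFP, and 6.33, 5.02, 4.55, 1.65 and 9.89 in FL-shAlpl. All 10 fatty-liver samples lay above all NL-shGFP samples, FL-shGFP itself spanned 24.8-fold from replicate 5 to replicate 4, and FL-shAlpl overlapped the low FL-shGFP replicates 3 and 5. The described difference of FL-shGFP from NL-shGFP was 6.55 ± 0.89, 93.4-fold. Under the other settings it ran from 2.98 to 6.63, so its size depends on the scale used for the few NL-shGFP counts. FL-shAlpl lay 4.05 ± 0.84 above NL-shGFP, 16.6-fold, also as a description, and 1.5 above it on log2(FPKM + 1).

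The fitted difference of Casp14 in FL-shAlpl from FL-shGFP was -2.50 ± 0.70, as a description, with 1 of 5 samples below all FL-shGFP samples. It was -1.79 without FL-shGFP replicate 4. FL-shGFP replicate 4 also had the highest summed level of 6 fibroblast markers (337 CPM, against 53.6 to 162 in the other FL-shGFP samples) and of 6 macrophage markers (528 CPM, against 151 to 294). The same held for 16 squamous epithelium markers (13.3 CPM, against 7.97 to 11.5) and 7 mesothelium and urothelium markers (44.7 CPM, against 18.4 to 26.4). Its endothelium, smooth muscle, lymphocyte and tuft cell sums were the highest of the group too. The part of these cells in the Casp14 value was not tested.

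Tgm3, the epidermal transglutaminase, was high in both fatty-liver groups. It was 6.03, 5.51, 20.1, 19.4 and 2.25 CPM in NL-shGFP, 949.6, 758, 119, 823 and 84.4 across FL-shGFP, and 141, 586, 366, 287 and 644 in FL-shAlpl. FL-shGFP fell into 3 high samples and the low replicates 3 and 5, the FL-shAlpl samples lay between its extremes, and no fatty-liver sample came near NL-shGFP. As a description, FL-shGFP exceeded NL-shGFP by 5.68 ± 0.84, 51.3-fold, and FL-shAlpl exceeded it by 5.25 ± 0.82, 38.0-fold. The fitted difference between the fatty-liver groups was -0.43 ± 0.68, less than its standard error, and its sign turned on the FPKM scale.

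Tgm2, the tissue transglutaminase found in many cell types, did not share the rise of Tgm3 with fatty liver. It was 119, 126, 112, 113 and 49.4 CPM in NL-shGFP, 173, 80.3, 107, 106 and 73.0 across FL-shGFP, and 98.8, 46.9, 54.9, 70.7 and 48.0 in FL-shAlpl. NL-shGFP replicate 5 and FL-shGFP replicate 1 stood apart from their groups, and 4 of 5 FL-shAlpl samples were below all FL-shGFP samples. FL-shAlpl was lower than FL-shGFP by -0.76 ± 0.28 (adjusted p = 0.0485, edgeR), but this held in 4 of 15 fits without 1 sample and 4 of 11 other settings, with adjusted p up to 0.155. Against NL-shGFP, FL-shAlpl gave -0.70 ± 0.28 (adjusted p = 0.102, edgeR), which was called without NL-shGFP replicate 5 (0.0291) or without FL-shAlpl replicate 1 (0.0340). FL-shGFP against NL-shGFP gave 0.06 ± 0.28, as a description.

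Cell types other than epithelium that express Tgm2 were also measured. Summed fibroblast markers were 8.28 to 55.4 CPM in NL-shGFP, 53.6 to 337 across FL-shGFP and 18.9 to 297 in FL-shAlpl. Summed endothelium markers were 3.44 to 5.11, 6.73 to 12 and 4.93 to 9.69 CPM, smooth muscle markers 1.27 to 2.79, 4.58 to 18.6 and 1.81 to 3.39, and macrophage markers 88 to 223, 151 to 528 and 55.7 to 282, in the same order of groups. No marker of these 4 lists was at 0 throughout a group. From FL-shGFP to FL-shAlpl, 0 of 6 fibroblast and 1 of 5 endothelium markers were called lower, beside 17.9% of all genes. So were 3 of 4 tested smooth muscle and 1 of 6 macrophage markers. The part of these cell types in the Tgm2 difference was not tested.

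Within groups, some members varied together from sample to sample. After centring log2 CPM on each group's mean, Casp14 and Tgm3 had a Pearson r of 0.80 and a Spearman rho of 0.81 over the 15 samples, and r was 0.66 without the 2 samples farthest from the median of Casp14. Krt8 and Krt19 had r of 0.79, rho of 0.76 and r of 0.69 without 2 samples. Krt20 and Casp14 had r of 0.71, which fell to 0.43 without 2 samples. Krt84 gave -0.13 with Krt20, but 0.72 with Krt19, 0.68 with Krt18, 0.48 with Krt8 and 0.31 with Krt7. Its r was 0.08 with Tgm3, -0.27 with Casp14 and -0.46 with Tgm2. Krt20 gave 0.70 with Krt8, 0.27 with Krt19, 0.17 with Krt18 and 0.60 with Tgm2. Tgm2 gave 0.26 with Tgm3 and -0.33 with Krt19. For Krt20 and Tgm3, r was 0.55 and fell to 0.12 without 2 samples. Krt7 and Krt20 ran opposite, with r of -0.61, and -0.51 without 2 samples. These values share library depth and are a description, and both low FL-shGFP replicates, 3 and 5, were low in Casp14, Tgm3 and Krt20 alike but not in Krt84.

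**Figure D4:**
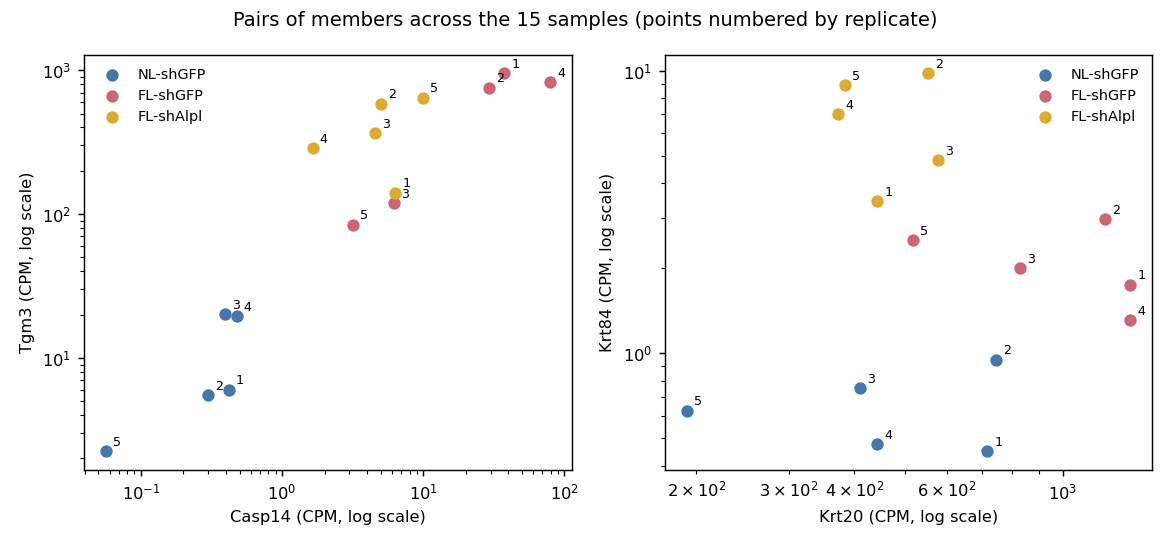
Tgm3 against Casp14 (left) and Krt84 against Krt20 (right) in the 15 samples, CPM on log axes, points numbered by replicate and coloured by group. FL-shGFP replicates 3 and 5 lie at the low end of their group for Casp14 and Tgm3, and Krt84 separates the 3 groups while Krt20 does not.

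The genes most like each member were found by the same centred correlation over 15 samples, among genes with at least 1 CPM on average. Krt20 was closest to Mxd1 (r = 0.97), Trim15 (0.96) and Apol9a (0.96). Casp14 was closest to Tapbp (0.94), Nabp1 (0.94) and 2010106E10Rik (0.94), and Tgm3 to H2-T22 (0.96), Nlrp10 (0.94) and Nxpe4 (0.94). Krt84 was closest to Alkbh6 (0.88), Ndufa7 (0.87) and Mlycd (0.87). Krt8 was closest to Sdcbp2 (0.96), Rit1 and Stk25, Krt18 to Spryd3 (0.91), Ctdsp2 and Gabarapl1, and Krt19 to Cmbl (0.93), Prrg2 and Fam234a. Krt7 was close to Tle6 (0.89) and Nudt22, and Tgm2 to Mlkl (0.91) and Gm12891.

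For the lists from here on, counts called stand beside the shares over all genes. These were 25.1% higher and 21.6% lower in FL-shGFP against NL-shGFP, and 18% and 17.9% in FL-shAlpl against FL-shGFP. In FL-shAlpl against NL-shGFP they were 9.31% and 8.12%. Among the other keratins, 34 were in the table and 13 were tested. With fatty liver (FL-shGFP against NL-shGFP), 5 rose (Krt14, Krt23, Krt36, Krt78 and Krt222) and 1 fell (Krt87), together near the 46.7% of all genes called. The median of the 13 was 0.00 beside -0.00 over all genes. Krt23, the neighbour of Krt20, had the highest level of them and rose from 6.23 ± 0.976 to 25.9 ± 6.31 CPM, a difference of 2.06 ± 0.34 (adjusted p = 0.000310, edgeR) with no overlap. Krt14, a keratin of basal squamous cells, rose by 1.95 ± 0.50 (adjusted p = 0.00522, edgeR) from a mean of 0.342 CPM. Between the fatty-liver groups 0 rose and 3 fell (Krt12, Krt14 and Krt222, median -0.32), and Krt23 differed by -0.63 ± 0.33 (adjusted p = 0.143, edgeR). Against NL-shGFP, 2 were higher (Krt23 and Krt36) and 1 lower (Krt12) in FL-shAlpl (median 0.65 beside 0.05). Krt36, a hair-type keratin, was higher there by 2.33 ± 0.57 (adjusted p = 0.0113, edgeR), and its FL-shAlpl replicate 4 at 12.1 CPM stood far above the other 4 at 1.71 to 2.98 CPM.

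**Figure D5:**
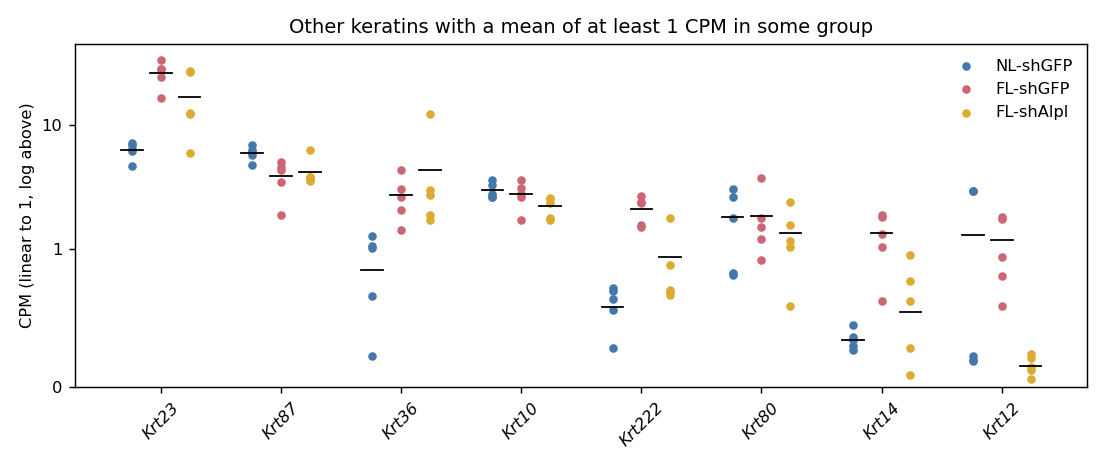
CPM of the other keratins with a mean of at least 1 CPM in some group (points, samples; black line, group mean; axis linear to 1 and logarithmic above). Krt23 is highest in FL-shGFP at a mean of 25.9 CPM, above the NL-shGFP mean of 6.23 CPM.

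Of 6 other transglutaminases, 4 were tested. F13a1, the clotting factor XIII subunit also made by macrophages, rose with fatty liver by 2.08 ± 0.62 (adjusted p = 0.0137, edgeR). It was the 1 called of 4, beside 46.7% of all genes, and the median of the 4 was 0.95. Between the fatty-liver groups, Tgm4 rose, Tgm1 and Tgm5 fell and the median was -1.56. Tgm4, the prostate transglutaminase, differed by 1.53 ± 0.50 (adjusted p = 0.0253, edgeR), with the low and high FL-shAlpl samples at 0.493 and 4.73 CPM. Against NL-shGFP, 1 of 4 (Tgm4) was higher in FL-shAlpl and 0 lower, with a median of -0.11.

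All 9 other caspases were tested. With fatty liver 3 rose and 2 fell (25.1% and 21.6% of all genes), with a median of 0.24. Casp4, an inflammatory caspase, rose by 1.17 ± 0.25 (adjusted p = 0.00189, edgeR), and Casp6 fell by 0.43 ± 0.11 on the log2 scale (adjusted p = 0.00431, edgeR). In FL-shAlpl against FL-shGFP, 2 fell and 0 rose (median -0.18), and in FL-shAlpl against NL-shGFP, Casp2 and Casp6 were lower (median 0.16).

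Of 32 genes of the cornified envelope and keratinization in the table, 19 were tested. With fatty liver 10 rose and 2 fell (Evpl and Grhl1), beside 25.1% and 21.6% of all genes, with a median of 0.88. The 10 include the near-identical copies Sprr2a1, Sprr2a2 and Sprr2a3, whose reads may be split between them. Csta1, a cystatin of the cornified envelope, rose by 4.34 ± 0.54 (adjusted p = 4.23e-05, edgeR) to 11.1 ± 5.62 CPM, and Asprv1, the protease that processes filaggrin, by 3.55 ± 0.48 (adjusted p = 6.60e-05, edgeR) to 9.87 ± 5.95 CPM. Between the fatty-liver groups 2 rose (Evpl and Lor) and 4 fell (Sprr2h, Csta1, Asprv1 and Abca12, median -0.61), with Csta1 down by -2.01 ± 0.48 (adjusted p = 0.00554, edgeR) and Asprv1 by -2.36 ± 0.44 (adjusted p = 0.00147, edgeR). Evpl, the envelope protein envoplakin, rose by 0.94 ± 0.18 (adjusted p = 0.00164, edgeR). Lor, which encodes loricrin, rose by 2.15 ± 0.50 (adjusted p = 0.00461, edgeR), but from 34 counts over the 5 FL-shGFP libraries to 178 over the 5 FL-shAlpl libraries, a mean of 0.690 CPM. Against NL-shGFP, 3 were higher (Scel, Csta1 and Lor) and 1 was lower (Grhl1) in FL-shAlpl, with a median of 0.42.

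Of 16 markers of squamous epithelium, 7 were tested. With fatty liver 3 rose (Krt14, Dsg3 and Sbsn) and 0 fell, beside 25.1% and 21.6% of all genes, with a median of 1.27. Dsg3, a desmoglein of squamous epithelium, was 0.832 CPM on average in NL-shGFP, 2.55 across FL-shGFP and 1.24 in FL-shAlpl. In FL-shAlpl, 0 rose and 2 fell (Krt14 and Dsg3, median -0.32) against FL-shGFP, and edgeR called 0 of the 7 against NL-shGFP (median 0.57). Trp63, the master factor of squamous cells, had 2 counts over the 5 NL-shGFP libraries, 10 over FL-shGFP and 4 over FL-shAlpl, and the basal keratin Krt5 had 2, 29 and 6. Most of the FL-shGFP level of Krt5 came from replicate 4, at 0.565 CPM against 0 to 0.132 in the other samples of that group. Krt10, a keratin of the layers above the basal one, had the highest level of the list in NL-shGFP at a mean of 2.98 CPM, and it averaged 2.75 across FL-shGFP and 2.20 in FL-shAlpl. The 16 markers summed to 5.49 to 7.08 CPM in NL-shGFP, 7.97 to 13.3 across FL-shGFP and 5.01 to 8.48 in FL-shAlpl. The part of squamous cells in the Casp14 and Tgm3 values was not tested. Dsg1a was at 0 throughout NL-shGFP and Krt4 throughout FL-shAlpl.

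Among 17 tested genes of desmosomes and keratin linkers, 8 rose and 3 fell (Pkp1, Pnn and Tchp) with fatty liver (median 0.48). Of all genes, 25.1% rose and 21.6% fell there. Dsg2, the desmoglein of simple epithelia, rose by 1.28 ± 0.17 (adjusted p = 5.29e-05, edgeR) and Dsp, the desmoplakin that ties keratins to desmosomes, by 0.64 ± 0.13 (adjusted p = 0.00123, edgeR). Between the fatty-liver groups 2 rose (Pkp1 and Lmna) and 2 fell (Dsg2 and Vim, median -0.09), Dsg2 falling by 0.61 on the log2 scale (adjusted p = 0.0109, edgeR) and Dsp differing by 0.01 ± 0.13 (adjusted p = 0.971, edgeR). Against NL-shGFP, 6 were higher and 1 lower (Pnn) in FL-shAlpl (median 0.30), and Dsp remained higher by 0.64 ± 0.13 (adjusted p = 0.00371, edgeR).

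Surface colonocyte genes moved in the direction of Krt20. With fatty liver 12 of 14 rose and 0 fell (median 2.07), beside 25.1% and 21.6% of all genes. Between the fatty-liver groups 0 rose and 9 fell (median -0.93), beside 18% and 17.9% of all genes. Car4, a carbonic anhydrase of the surface epithelium, was 232 ± 101 CPM in NL-shGFP, 3094 ± 1454 across FL-shGFP and 539 ± 232 in FL-shAlpl. Its difference between the fatty-liver groups was -2.52 ± 0.48 (adjusted p = 0.00163, edgeR). Against NL-shGFP, 5 were higher in FL-shAlpl (Slc26a3, Slc9a3, Ceacam20, Lypd8 and Muc3) and 0 lower (median 0.97), and Lypd8, a secreted protein of the colonic surface, was higher by 1.48 ± 0.34 (adjusted p = 0.00849, edgeR). FL-shGFP replicates 3 and 5, low in Krt20, Casp14 and Tgm3, were also the 2 lowest samples of their group in 10 of these 14 genes, among them Car4, Lypd8 and the chloride exchanger Slc26a3. The other 4 were Slc9a3, Ceacam1 and Emp1, where replicate 5 alone was lowest, and Guca2a, which was highest in replicate 3 (1070.7 CPM, against 578 to 949.6 in the other 4). Asprv1 ran the other way, with its highest values in the series in FL-shGFP replicates 3 (19.2 CPM) and 5 (10.9 CPM). The part of surface colonocytes in the differences of Krt20, Casp14 and Tgm3 was not tested.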

How the data were processed

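RNA-seq of colonic crypts covered 15 samples, 5 in each of the 3 groups. Columns were used to purify RNA and mRNA was enriched, per the labels' protocols. HISAT2 was used, per the submitters' processing notes. How reads were counted, with which strand setting, build and annotation, is not given in the sources used here. Deposited by the authors were read counts per gene and FPKM. The ratio of deposited FPKM to counts, corrected for library total, gave the same length for a gene in all samples (spread up to 1.12e-06 of the length), so both hold the same reads. Between 72.4 and 77.2% of counts from 1 to 12 were even in each library, so small counts hold fewer fragments than they show. Reads shared by overlapping or antisense genes could not be assigned by strand here.

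An edgeR 4.0.16 quasi-likelihood model (R 4.3.3, TMM factors, robust, a mean per group) was fitted to 17404 genes that passed filterByExpr, with 12 residual degrees of freedom. Tests were two-sided with Benjamini-Hochberg adjustment at 0.05, and ± beside levels is the SD. The biological coefficient of variation was 30.2%. Log2 CPM for correlations used a prior count of 2. The members and lists were chosen with earlier results of these data known. Named genes are all 9 members. For each list and comparison they are up to 4 called genes with the smallest adjusted p and up to 2 abundant genes not called, of which the text prints part. Up to 3 most similar genes are named for each member. Some genes that meet these rules are left out of the text. Genes that complete a count of 5 or fewer, and Asprv1's sample values, were chosen after their values were seen. Alternatives were totals alone, RLE factors, a filter of 1 CPM in 5 samples or none, limma 3.58.1 on log2(FPKM + 1) and log2(FPKM + 0.1), DESeq2 1.42.0, a replicate block, only the 2 groups compared, the closest NL-shGFP libraries summed, no mitochondrially encoded genes, and each sample left out. The code was tested on simulated data. Figures used Python 3.11.15 and matplotlib 3.10.9. All value columns belonged to a sample. The closest pair of libraries, NL-shGFP replicates 3 and 4, differed by more than sampling noise (median halved chi-square 0.760 where 0.455 would be sampling alone) and were kept separate.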

Additional observations from a re-analysis of the deposited data

Results flagged for a closer look

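Tgm2 in NL-shGFP replicate 5 was 49.4 CPM, far below the other 4 samples of its group. Its gap to the nearest of them took up 0.818 of the group's range, above the critical value of 0.71 for 5 samples. It was the 1 such case among 33 group values examined, and chance alone gives about 1 in 20.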

How the results depend on the processing

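Of the member results, 365 leave-one-out values kept direction and call, 26 lost a call, 7 gained one and 7 reversed, and under the other settings 259 kept both, 14 lost a call, 13 gained one and 11 reversed. The cause of these changes was not tested. The tally spans all 9 members and all 3 comparisons, those given only as a description among them, and is no test of those. Of the 7 members other than Casp14 and Tgm3, 3 were called between the fatty-liver groups, beside 36% of all genes. Leaving out 1 sample gave 2 to 4. In FL-shAlpl against NL-shGFP, 4 of the 7 were called, beside 17.4% of all genes. There the range was 3 to 6, with 6 without FL-shAlpl replicate 1. Reversed values were near 0. Tgm2 in FL-shGFP against NL-shGFP ran from -0.18 to 0.17 (-0.12 without NL-shGFP replicate 5). Krt18 between the fatty-liver groups was 0.060 on totals alone, 0.0019 with no filter, 0.061 on both FPKM scales and -0.092 to 0.034 when leaving out 1 sample. Tgm3 there was 0.059 on log2(FPKM + 1) and 0.066 on log2(FPKM + 0.1). Krt20 in FL-shAlpl against NL-shGFP was 0.046 on totals alone, 0.16 on both FPKM scales, 0.045 under the replicate block, 0.045 with the close NL-shGFP libraries summed and -0.31 to 0.081 when leaving out 1 sample.

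Replicate numbers did not pair the samples (correlations of same-numbered samples -0.35 to 0.33). With the replicate block, Casp14 between the fatty-liver groups was -1.89, and Tgm2 in FL-shAlpl against NL-shGFP gained a call (adjusted p = 0.0252, edgeR). With the NL-shGFP libraries summed, Krt8 (adjusted p = 0.0958) and Krt19 (0.0572) lost their edgeR calls against NL-shGFP, and genes called there fell from 3035 to 1340. Totals alone moved that comparison's all-gene median from 0.05 to 0.19, and its split from 1621 higher and 1414 lower to 2783 and 930. In FL-shGFP against NL-shGFP the split went from 4376 and 3752 to 4521 and 2347.

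Counts called in the lists are few and moved easily. In FL-shGFP against NL-shGFP, other transglutaminases were 2 on both FPKM scales and under the replicate block and 0 with libraries summed (leave-one-out 1 to 2), other caspases 3 with no filter or libraries summed (3 to 7), and cornified genes 7 to 14. In FL-shAlpl against FL-shGFP, other keratins were 6 with no filter, transglutaminases 1 at 1 CPM in 5 samples, caspases 1 with no filter, on both FPKM scales, with only 2 groups and with libraries summed (1 to 3), surface colonocyte genes 5 with no filter (5 to 10), cornified genes 4 to 8 and desmosome genes 3 to 8. In FL-shAlpl against NL-shGFP, keratins were 1 with libraries summed, and transglutaminases 0 at 1 CPM, on both FPKM scales, under the replicate block, with only 2 groups and with libraries summed (0 to 1). Caspases there were 1 on totals alone, with no filter and on both FPKM scales and 0 with libraries summed (1 to 3), and desmosome genes 1 with libraries summed (4 to 9). Surface colonocyte genes were 9 on totals alone, 3 with no filter or libraries summed and 8 on both FPKM scales (3 to 8), and cornified genes 3 to 6. As a share of raw counts, Krt8 was 90.9, 95.0 and 95.5% of Krt7 and Krt8 in NL-shGFP, FL-shGFP and FL-shAlpl, beside 97.3, 98.6 and 98.7% per length.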
